A study of Mus musculus with 14 samples.

Results

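The 9 genes described here, *Aif1*, *Cx3cr1*, *Csf1r*, *Itgam*, *P2ry12*, *Trem2*, *Tyrobp*, *C1qa* and *C1qb*, are widely used markers of microglia, and they were picked by gene symbol from the 19215 genes of a mouse spinal cord study. All 9 were listed in both RNA-seq libraries, and 5 of the 13189 cassette exon events belonged to 3 of them. RNA-seq of whole spinal cord (WSC) was available from 1 male and 1 female Tg(SOD1)2Gur/J mouse, a B6/SJL strain that carries a wild-type human SOD1 transgene, at 12 weeks of age by the labels. CLIP libraries, in which RNA crosslinked to the neuronal splicing factor NOVA is sequenced, were available from 12 immunoprecipitates of C57BL/6 spinal cords at 3 months of age. Of these, 4 came from hemizygous Chat:GFP-Nova mice of line 6 and 4 from hemizygous mice of line 17, each a pool of several cords precipitated with antibodies against GFP. The Chat promoter places the tagged NOVA2 in motoneurons, so these 8 libraries are called MN CLIP. The other 4, called WSC CLIP, each came from the cord of 1 wild-type mouse and were precipitated with antibodies against NOVA itself. Transgene, antibody and pooling all differ between MN and WSC CLIP and cannot be told apart, and every RNA-seq mouse carries the SOD1 transgene, with no non-transgenic RNA library beside it.

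Microglia are the resident macrophages of the brain and spinal cord. They arise from yolk sac progenitors, depend on signals through the CSF1 receptor for survival, and patrol the tissue with motile processes that answer to ATP, ADP and fractalkine. They are the main source of complement C1q in the central nervous system, and in motoneuron disease models they leave the resting state. NOVA1 and NOVA2 are neuronal proteins that bind clusters of the tetramer YCAY, so microglial transcripts in these data are RNAs of cells that are not known to make NOVA.

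The sequences below are those that the exon and CLIP results turn on, read from the mm9 genome 5′ to 3′ on the strand of the gene. The first and second are 30-nt stretches centred on the deepest point of the main cluster of CLIP reads, with capitals marking the tetramer YCAY, where Y is C or T. The third is a 67-nt cassette exon that the study's exon annotation places in *Tyrobp*, in capitals, with 10 nt of intron on each side.
P2ry12 site, chr3:59021044-59021073, minus strand: CCATacaaatatattaacatTCACtaaaaa
C1qb site, chr4:136436152-136436181, minus strand: tccaacaCCATcttcctgcctccctgccag
Tyrobp exon, chr7:31200017-31200103, plus strand: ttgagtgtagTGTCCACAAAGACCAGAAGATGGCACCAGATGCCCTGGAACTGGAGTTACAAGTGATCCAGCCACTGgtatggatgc
The *P2ry12* stretch held 2 copies of the tetramer and the *C1qb* stretch 1. Of 1156048 windows of 30 nt tiled over annotated UTRs of protein-coding genes, 35.2% held at least 1, searched on the strand of the gene only.

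All 9 markers were present in both RNA libraries at moderate levels. Levels are given as RPKM, which divides a gene's reads by exon length and library total and so allows genes to be compared. *Tyrobp*, which encodes the adaptor DAP12 through which TREM2 signals, stood at 37.8 RPKM in the male and 28.1 in the female library. *C1qb* stood at 30.6 and 34.7 RPKM, and *C1qa* at 28.0 and 31.2. Both encode chains of C1q, the recognition part of the classical complement pathway, and the third chain gene, *C1qc*, lay beside them at 30.5 and 32.3 RPKM. *Csf1r*, the receptor tyrosine kinase for CSF1 and IL34, measured 26.6 and 27.6 RPKM. *P2ry12*, the ADP receptor of resting microglia, gave 18.9 and 17.6 RPKM, and *Cx3cr1*, the fractalkine receptor, 13.5 and 14.1 RPKM. These 3 receptors differed little between the libraries, while the other levels spread more. *Aif1*, which encodes the calcium-binding protein IBA1, was at 6.86 RPKM in the male library against 11.1 in the female library. *Itgam*, the alpha chain of the CD11b integrin, was at 5.94 and 5.38 RPKM. *Trem2*, a lipid-sensing surface receptor, was at 4.76 and 5.99 RPKM.

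**Figure D1:**
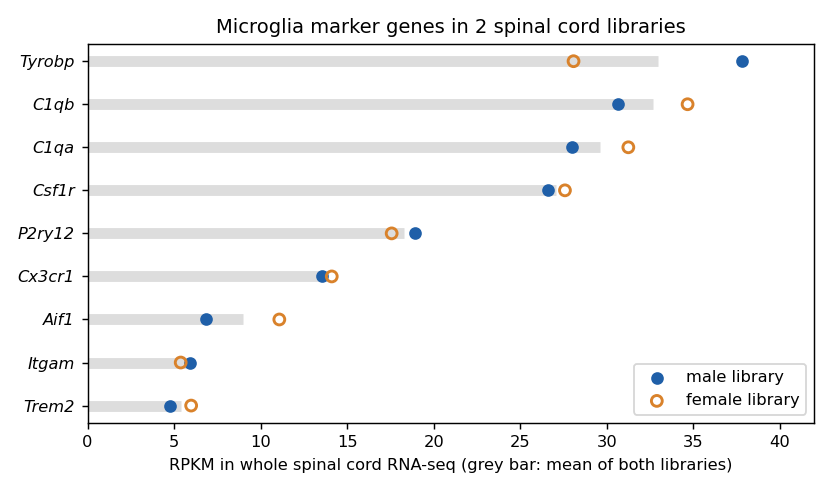
RPKM (horizontal axis) of each of the 9 marker genes (rows, ordered by mean) in the male (filled) and female (open) whole spinal cord RNA-seq library, with the mean of both as a grey bar. Means run from 5.37 RPKM for *Trem2* to 33.0 for *Tyrobp*, and the libraries lie furthest apart for *Tyrobp* and *Aif1*.

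Ordered by the mean of the 2 libraries, the markers ran from *Tyrobp* at 33.0 ± 6.90 RPKM (SD, n = 2) to *Trem2* at 5.37 ± 0.865 RPKM (SD, n = 2). Neighbours in this order were taken as separated only where both libraries of one gene lay above both of the next. On that rule *Tyrobp* and *C1qb*, *C1qb* and *C1qa*, and *Itgam* and *Trem2* were not separated, and every other neighbouring pair was. Among the 11940 genes with a mean of at least 1 RPKM, *Tyrobp* was above 81.9% of genes and *Trem2* above 30.1%. *P2ry12*, the middle one of the 9, was above 67.1%. In bulk tissue a low level of a marker from few cells and from little RNA per cell cannot be told apart.

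The ligands and partners of the markers spanned a wide range. Fractalkine, encoded by *Cx3cl1* and made largely by neurons, reached 70.2 RPKM in the male and 57.9 in the female library, above its receptor *Cx3cr1* in both. Of the 2 ligands of *Csf1r*, *Csf1* was at 11.5 and 9.67 RPKM and *Il34* at 6.94 and 6.51 RPKM, all below the receptor. *Itgb2*, the beta chain that pairs with *Itgam*, was at 3.40 and 3.53 RPKM. Among signalling genes downstream of *Tyrobp*, the kinase gene *Syk* was at 0.423 and 0.495 RPKM. *Hcst*, the adaptor DAP10, had 0 reads in the male and 4 in the female library. *Apoe*, a lipid carrier that TREM2 can bind, was at 942 and 816 RPKM.

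The complement components that act after C1q were uneven. *C3*, the central component of all complement pathways, was at 80.1 RPKM in the male and 54.0 in the female library, and *C4b* at 39.0 and 29.0 RPKM. The proteases that join C1q in the C1 complex were low by comparison, with *C1ra* (listed as *C1r*) at 0.206 and 0.138 RPKM and *C1s* at 0.203 and 0.150 RPKM. *C2* was at 0.305 and 0.219 RPKM. *Serping1*, the inhibitor of the C1 proteases, was at 3.47 and 4.32 RPKM. The spinal cord libraries thus held C1q chain RNA at levels near those of *C4b*, with each C1 protease gene below 1 RPKM.

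With 1 library per sex, the male and female libraries were compared without a test, as the log2 ratio of male to female RPKM after adding 0.1 RPKM, for genes with at least 10 reads in each. Intervals are exact 95% binomial intervals on the reads and cover counting error only. They say nothing about how mice of the same sex vary. *Aif1* had 422 reads in the male and 621 in the female library, a log2 ratio of −0.68 (interval −0.87 to −0.51). It was the only one of the 9 past 1.5-fold, and 4.69% of all 14219 genes compared had a ratio of that size or larger in either direction. *Tyrobp* leaned the other way with 1542 and 1043 reads, a log2 ratio of 0.43 (interval 0.32 to 0.54), under 1.5-fold. *Trem2* had 392 and 449 reads, a log2 ratio of −0.32 (interval −0.53 to −0.13). The remaining 6 had log2 ratios between −0.18 for *C1qb* and 0.14 for *Itgam*, with *C1qa* at −0.16, *P2ry12* at 0.11, *Cx3cr1* at −0.06 and *Csf1r* at −0.05. *Tyrobp* and *Trem2*, whose proteins form one receptor complex, leaned in opposite directions between these 2 mice, neither past 1.5-fold. A ratio of the size of that of *Tyrobp* or larger, in either direction, was found for 12.9% of all genes compared. For *Trem2* that share was 20.55%.

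Over the 9 genes, 3 ratios were positive and 6 negative with a median of −0.06, beside a median of 0.01 over all genes compared. None of the 9 was higher in the male library past 1.5-fold, where 4.11% of genes were, and 1 was higher in the female library, where 2.72% were. Among the 6190 genes whose mean level lay within the range of the 9 markers, 91 passed 1.5-fold in either direction (1.47%).

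**Figure D2:**
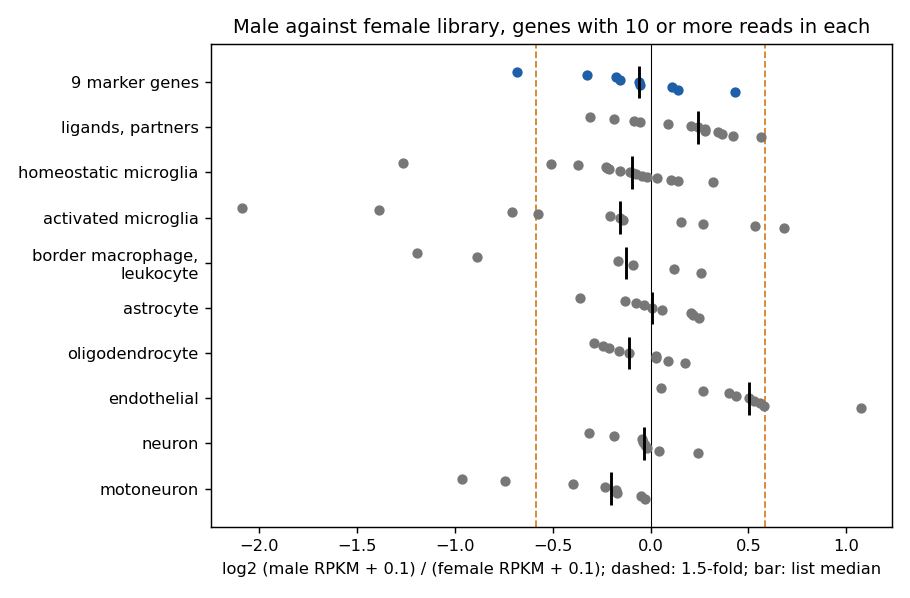
Log2 ratio of male to female RPKM with 0.1 added (horizontal axis) for every gene of the 9 markers (blue) and of the other lists (grey) with at least 10 reads in each library. Dashed lines mark 1.5-fold, black bars list medians. *Aif1* is the only marker beyond a dashed line, and all 9 endothelial genes lie above 0.

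Other microglial genes and genes of neighbouring cell types were read from the same libraries for context. In the list of homeostatic microglia, 1 of 16 genes passed 1.5-fold, *Fcrls*, at 1.58 RPKM in the male and 3.93 in the female library, and the list median was −0.10. *Ctss* (73.1 and 85.8 RPKM), which encodes the lysosomal protease cathepsin S, stayed within 1.5-fold, as did *Olfml3* with a log2 ratio of −0.51. In the list of activated microglia, 3 of the 11 genes compared were higher in the female library, *Spp1* (log2 ratio −0.71), *Gpnmb* (−2.09) and *Lgals3* (−1.39). *Gpnmb* and *Lgals3* were low, at 0.230 and 1.44 RPKM in the male and 1.30 and 3.92 in the female library, while *Spp1* was at 83.2 and 136 RPKM. In bulk tissue the cells that this RNA comes from cannot be told apart. The list name is therefore no reading of the state of microglia in either cord. In the male library 1 was higher, *Cd68* (0.68, named after its value was seen). Of the 11 ratios 4 were positive and 7 negative, with a median of −0.16. *Ctsd*, the most abundant of that list at 281 and 310 RPKM, stayed within 1.5-fold.

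Markers of blood-derived and border macrophages were sparse. Of 14 such genes, 2 had a mean of at least 1 RPKM, the leukocyte antigen *Ptprc* (0.949 and 1.08 RPKM) and the lysozyme gene *Lyz2* (3.77 and 8.75 RPKM), and their summed level was 6.30 RPKM in the male and 12.9 in the female library. Of the 6 of them compared, *Lyz2* (log2 ratio −1.19) and the border macrophage gene *Cbr2* (−0.89) were higher in the female library past 1.5-fold. *Cbr2* rested on 14 reads in the male and 29 in the female library. None of the 6 was higher in the male library past 1.5-fold. Of their ratios 2 were positive and 4 negative, with a median of −0.13. The monocyte gene *Ly6c2* had 0 reads in both libraries. The summed level of the 9 microglial markers was 173 RPKM in the male and 176 in the female library.

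Endothelial genes differed between the libraries: all 9 had positive ratios, with a median of 0.50 and a summed level of 34.2 RPKM in the male and 25.9 in the female library, and *Tie1* passed 1.5-fold (1.08). All 8 motoneuron genes had negative ratios, with a median of −0.20, and *Mnx1* (−0.96) and *Slc5a7* (−0.74) were higher in the female library. Lists for astrocytes, oligodendrocytes and neurons had medians of 0.00, −0.11 and −0.03, with no gene past 1.5-fold. The part that tissue composition has in the values of *Aif1*, *Tyrobp* and *Trem2* was not tested.

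The 5 cassette exon events of the markers lay in *Aif1*, *P2ry12* and *Tyrobp*, and the other 6 genes had none in the study's exon annotation. In *Aif1* both events describe one exon on the minus strand of chromosome 17 with alternative ends, of 175 nt (35309460 to 35309634) and of 178 nt (to 35309637), each with 25 nt of annotated coding sequence. Both forms were given the same reads, 69 across the second inclusion junction in the male and 103 in the female library, with 0 across the first junction and 0 skipping reads. Inclusion, taken from junction reads with both inclusion junctions averaged, therefore came to 100% in both libraries (95% Wilson interval from 90.0% in the male and from 93.1% in the female library). Only 1 read in the male and 0 in the female library lay within the exon. With the first junction also empty, the 100% does not show that the whole exon was included. The 2 *Aif1* events were the only marker events with 10 or more junction reads in both cords. With 0 skipping reads on either side, a two-sided Fisher's exact test between the libraries could only give p = 1. Of all 9396 exons compared, 4.26% were called at a Benjamini-Hochberg FDR of at most 0.1.

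The other 3 events had fewer reads and are named after their values were seen. In *Tyrobp* the 67-nt event shown above lies within an intron and overlaps no annotated exon. Its bases are flanked by AG before and GT after, the dinucleotides of most splice sites. It had 0 inclusion reads in both libraries, with 11 skipping reads in the male (Wilson interval of inclusion up to 25.9%) and 6 in the female library (up to 39.0%), so inclusion of this exon was not detectable at this depth.

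*P2ry12* had 2 events, both in its 5′ noncoding part on the minus strand of chromosome 3. The 131-nt exon (59031373 to 59031503) had 9 inclusion and 2 skipping junction reads in the male library, an inclusion of 69.2% (Wilson interval 33.1% to 91.1%). In the female library it had 1 inclusion and 4 skipping junction reads, an inclusion of 11.1% (1.17% to 56.9%). The intervals overlap. All these inclusion reads lay on the first junction, with 0 on the second in both libraries, which lowers both averaged values. Reads within the exon numbered 5 in the male and 10 in the female library, the opposite order. The female library was under 10 junction reads, so the event was tested only with the looser minimum of 10 in both libraries together, where it was not called. The 65-nt exon (59024141 to 59024205) had 8 inclusion junction reads and 0 skipping reads in each library. *P2ry12* lies inside *Med12l*, a gene on the opposite strand, and shares 0 nt of exon with it. *Csf1r* shares 871 nt of its 5229 exonic nt with *Hmgxb3* on the opposite strand, and RNA reads there cannot be assigned to either, since the TruSeq kit used does not mark strand.

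NOVA CLIP reads on the markers were few. The 4 WSC libraries held 2213104 to 6095995 reads each and the 8 MN libraries 65961 to 871804. Of these, 469 of 14106080 WSC reads and 34 of 1553775 MN reads on the sense strand of protein-coding genes fell on the 9 markers. Levels of CLIP reads are given as CPM, reads scaled to 1000000 sense reads on genes. The 9 markers summed to 28.4 to 37.5 CPM in the WSC libraries and 11.8 to 44.1 in the MN libraries, so the ranges overlap. *Chat*, the motoneuron gene whose promoter drives the transgene, separated the groups as the labels say, with 46.5 to 65.8 CPM in WSC and 300 to 633 in MN libraries.

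*P2ry12* carried the most CLIP reads of the 9. WSC replicates 1 to 4 had 38, 66, 68 and 34 reads, the line 6 libraries 0, 1, 4 and 4, and the line 17 libraries 0, 2, 0 and 2. WSC libraries gave 15.2 ± 2.62 CPM (SD, n = 4), while the MN libraries ran from 0 through a median of 7.73 to 23.0. The MN values lay on both sides of the WSC values, and the shallowest MN library held only 49985 sense reads on genes.

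*Csf1r* followed with 31, 43, 53 and 18 reads in the WSC libraries, 1, 1, 2 and 0 in line 6 and 1, 0, 1 and 0 in line 17. The WSC libraries lay close together at 10.4 ± 1.31 CPM (SD, n = 4), and the MN libraries spanned 0 to 20.01 CPM. *Cx3cr1* had 14, 17, 25 and 8 reads in WSC, 0, 1, 0 and 1 in line 6 and 0, 0, 1 and 1 in line 17, with 4.61 ± 0.884 CPM in WSC (SD, n = 4). For these 3 surface receptors every WSC library held reads, and each had MN libraries at 0.

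The complement and phagocytic genes had fewer still. *C1qb* had 7, 7, 7 and 3 reads in WSC (1.79 ± 0.513 CPM, SD, n = 4), 3 in line 6 replicate 3, 2 in line 17 replicate 4 and 0 in the other 6 MN libraries. *Itgam* had 6, 6, 5 and 3 reads in WSC and 2 in all MN libraries together, a pooled MN to WSC ratio of 0.908 with an exact counting interval of 0.103 to 3.74. *C1qa* had 5 reads in WSC, 0.354 CPM, and 0 in MN, which allows up to 1.93 CPM, so no difference was detectable. *Trem2* had 4 reads in WSC and 2 in MN, a ratio of 4.54 with an interval of 0.411 to 31.7. *Aif1* had 1 read in each. *Tyrobp*, whose mean RNA level over the 2 libraries was 33.0 RPKM, had 0 reads in WSC, which allows up to 0.213 CPM, and 1 in MN.

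**Figure D3:**
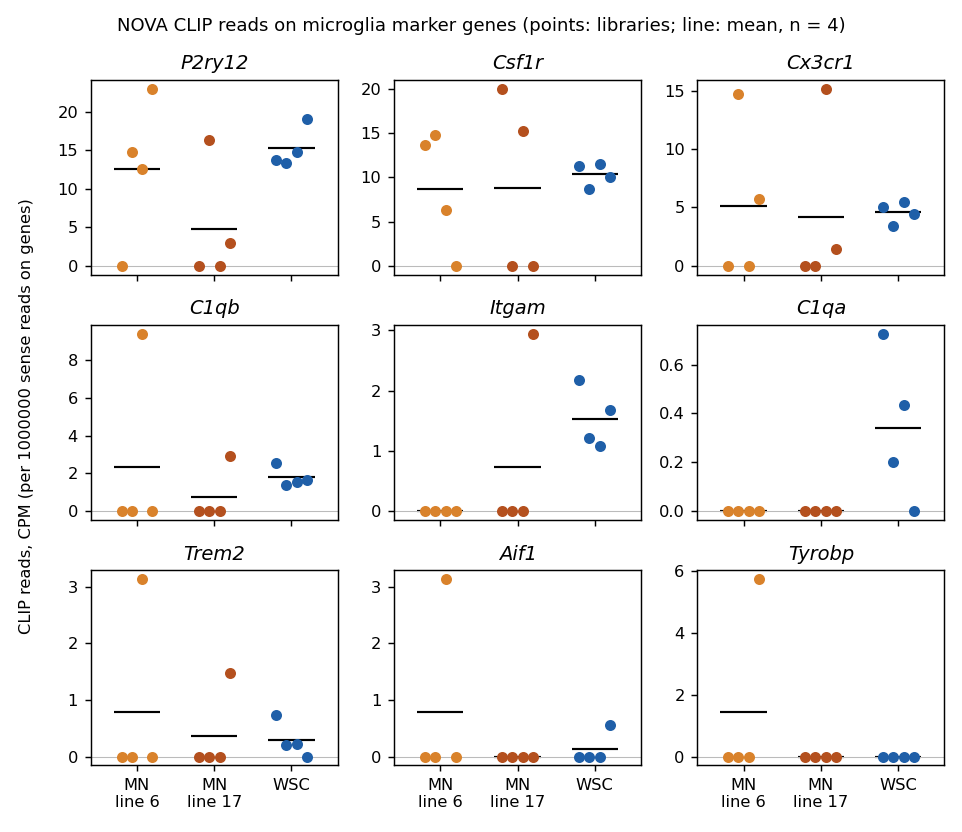
CLIP reads in CPM (reads scaled to 1000000 sense reads on protein-coding genes; vertical axis, own scale per gene) for each marker in the 4 MN line 6, 4 MN line 17 and 4 WSC libraries; points are libraries and lines means. The WSC libraries lie close together for *P2ry12*, *Csf1r* and *Cx3cr1*, whereas MN libraries jump between 0 and the value of 1 or a few reads.

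The MN and WSC groups were compared with edgeR's quasi-likelihood test at FDR of at most 0.01, as the mean of both MN lines minus WSC. None of the 9 markers passed edgeR's filter on low counts, which left 4536 genes, of which 27.4% were higher and 29.1% lower in MN. The values of the markers therefore come from the same fit without that filter, over 16430 genes with at least 1 read, of which 6.38% were higher and 16.2% lower in MN. In that fit 0 of the 9 were called and 2 had an unadjusted p under 0.05. DESeq2 without a filter gave an adjusted p for 3 of the 9 and called none of those 3. *Csf1r* was lower in MN by a log2 value of −1.57 ± 0.54 (SE, edgeR adjusted p = 0.0157) and *P2ry12* by −1.03 ± 0.42 (SE, edgeR adjusted p = 0.0498). Both would pass an FDR of at most 0.05, as did 21.0% of all genes in the same direction. With a term for replicate number in the fit neither would (edgeR adjusted p = 0.0561 for *Csf1r* and 0.0518 for *P2ry12*). *Cx3cr1* had −0.90 ± 0.68 (SE, edgeR adjusted p = 0.368) and *C1qb* 0.73 ± 0.77 (SE, edgeR adjusted p = 0.564).

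These values rest on few libraries. Without line 17 replicate 4, the deepest MN library, *Csf1r* had −0.70 ± 0.62 and *P2ry12* −0.64 ± 0.55, with edgeR adjusted p = 0.525 and 0.516. *Csf1r* was called lower at FDR of at most 0.01 without line 17 replicate 1 (−2.001, edgeR adjusted p = 0.00582), without line 17 replicate 3 (−1.99, edgeR adjusted p = 0.00649) and with only the libraries that share the long 5′ barcode (−2.16, edgeR adjusted p = 0.00821). Replicates 1 and 2 of both MN lines carry a short barcode, and every WSC library carries the long one. Counted on exons only, *Csf1r* had −0.95 (edgeR adjusted p = 0.327) and *P2ry12* −0.34 (edgeR adjusted p = 0.754). The median of all genes in the unfiltered fit was −0.47, and −0.34 with DESeq2's size factors, a shift of 0.13. Relative to it, *Csf1r* stood at −1.10 and *P2ry12* at −0.56 with edgeR's TMM scaling, and at −1.10 and −0.55 with the size factors. Without line 17 replicate 4 the median of all genes was −0.77, and both genes lay above it. On exons only it was also −0.77, with *Csf1r* below it and *P2ry12* above it. Sense exonic reads made up 25.9% to 35.4% of MN libraries and 49.9% to 54.2% of WSC libraries. The part of this difference in the values of the 2 genes was not tested. The 2 MN lines were also compared with each other, and no marker differed at FDR of at most 0.01, with *P2ry12* at 1.61 ± 0.86 for line 6 over line 17 (log2, SE, edgeR adjusted p = 0.937).

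On 3 of the markers the reads gathered in the 3′ untranslated region. Of the 219 sense reads on *P2ry12* in all 12 libraries, 55.7% had their middle in the 3′ untranslated region and 41.6% in the coding sequence. A single 100-nt window of the untranslated region, chr3:59021019-59021118, held 96 of them (43.8%), 93 from WSC with 16, 30, 31 and 16 in replicates 1 to 4 and 3 from MN. Its deepest point, 70 reads, lay 76 nt past the end of the coding sequence, and the 30 nt around it are those printed above. Reads on *Csf1r* lay in the 3′ untranslated region in 77.5% of 151 cases, with 64 in a single 100-nt window, 62 of them from all 4 WSC libraries. The deepest point there lay 479 nt past the coding sequence, and the 30 nt around it held 1 copy of the tetramer. On *C1qb*, 14 of 29 reads fell in 1 window, 12 of them from all 4 WSC libraries, with the deepest point at 11 reads and 41 nt past the coding sequence. These counts are not scaled for depth, and WSC held 14106080 sense reads on genes against 1553775 in MN.

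**Figure D4:**
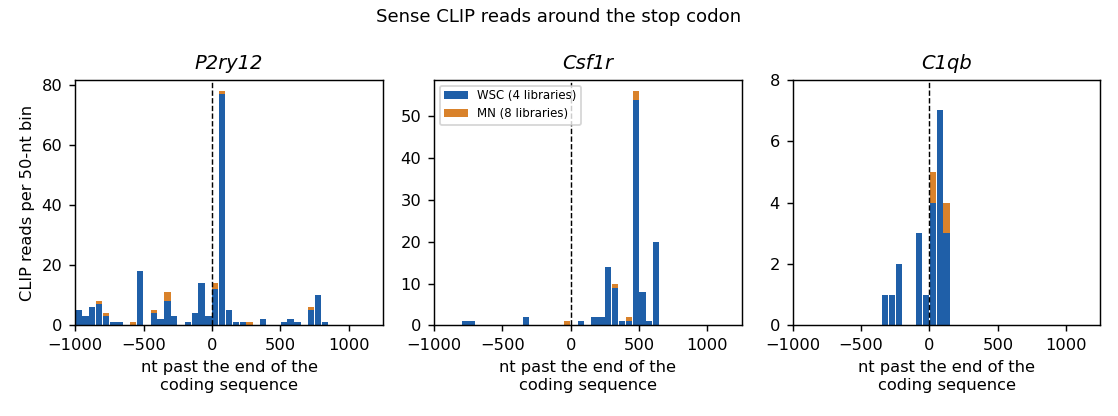
Sense CLIP reads (vertical axis) in 50-nt bins by the distance of the read's middle from the end of the coding sequence (horizontal axis, nt, positive into the 3′ untranslated region) for *P2ry12*, *Csf1r* and *C1qb*, stacked from 4 WSC (blue) and 8 MN (orange) libraries. Each gene has 1 main peak past the stop codon. Most reads in it are from WSC, which held 14106080 sense reads on genes against 1553775 in MN.

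The other markers showed no such cluster of at least 10 reads. The 68 reads on *Cx3cr1* were spread over the coding sequence (41.2%), the 3′ untranslated region (41.2%) and introns (17.6%). *Itgam* had 54.5% of its 22 reads in introns and 0 in the 3′ untranslated region. On the strand opposite to *P2ry12*, which is that of the host gene *Med12l*, 1515 reads were counted, 6.92 times the sense reads. The opposite strand of *Csf1r* had 21 reads and that of *Aif1* 1, and the other 6 genes had 0.

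To set the CLIP reads against the abundance of the RNA, the share of exonic WSC CLIP reads on a gene was divided by its share of RNA-seq reads, so that 1 marks a gene with as many CLIP reads as its RNA would give. Values with an SD are means of the 4 libraries, and list medians use their pooled reads. The RNA comes from SOD1 transgenic B6/SJL mice and the CLIP from wild-type C57BL/6 mice, and differences between them are part of the ratio. *P2ry12* had 204 exonic CLIP reads where 358 would mark a ratio of 1, a ratio of 0.588 ± 0.1003 over the 4 WSC libraries (SD). *Cx3cr1* had 0.127 ± 0.0261 and *Csf1r* 0.111 ± 0.0156 (SD over 4 libraries). *P2ry12* thus lay above *Cx3cr1* and *Csf1r* by more than the spread between libraries, with its lowest library at 0.506 and the highest library of *Cx3cr1* at 0.148 and of *Csf1r* at 0.131.

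*C1qb* had 0.0835 ± 0.0243, *Trem2* 0.0771 ± 0.0811, *Itgam* 0.0383 ± 0.0158, *Aif1* 0.0309 ± 0.0619 and *C1qa* 0.0176 ± 0.0158 (each SD over 4 libraries). *Tyrobp* had 0 CLIP reads where 157 would mark a ratio of 1, and a count of 0 allows a ratio of up to 0.0191. *C1qb* and *C1qa*, neighbouring genes with similar RNA levels, differed here, since no WSC library of *C1qa* exceeded 0.0364 and none of *C1qb* was under 0.0661.

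The median ratio of the 9 markers was 0.0781, and 6 of the 9 (66.7%) were under 0.1. Of 10886 genes at a mean of at least 1 RPKM, the median was 0.440 and 20.6% were under 0.1; among the 5625 of them within the markers' range of RNA levels, the median was 0.468 and 18.9% were under 0.1. *P2ry12* alone of the 9 exceeded the median of all genes, with 56.6% of genes below it. Other microglial genes reached such values too: the 15 genes of the homeostatic list ran from 0.0208 to 0.613, beside 0.569 for *P2ry12* on pooled reads.

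Median ratios were 0.0555 for 9 oligodendrocyte genes, 0.0806 for 9 endothelial genes, and 0.0785 for 7 activated and 0.123 for 15 homeostatic microglial genes, all under the lower quartile of all genes, 0.131. The 9 astrocyte genes had a median of 0.307, within the quartiles, with 1 of them under 0.1 and the highest, *Slc1a2* (named after its value was seen), at 5.75. They were 1.64 for 8 neuronal and 1.203 for 6 motoneuron genes, 0.116 for 9 ligands and partners of the markers, and 0.318 for 2 border macrophage and leukocyte genes. Among the partners, *Cx3cl1*, the neuronal ligand of *Cx3cr1*, had the highest ratio at 2.25 ± 0.0695 (SD over 4 libraries), against 0.127 for its microglial receptor. *C1qc*, the third C1q chain gene, had 0.114 ± 0.103, and *C3* had 0.0380 ± 0.0115.

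**Figure D5:**
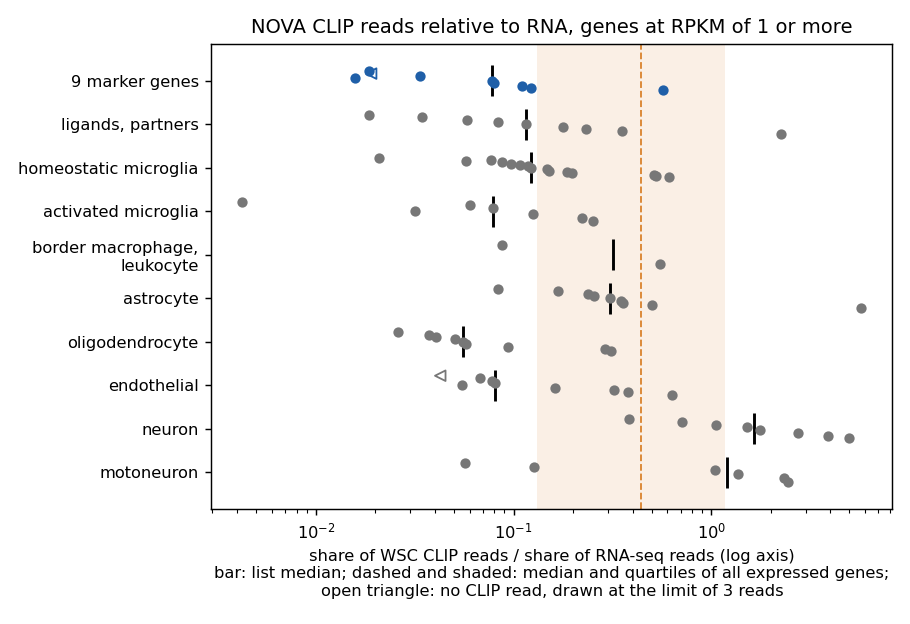
Ratio of the share of WSC CLIP reads to the share of RNA-seq reads (horizontal log axis) for each gene at a mean of at least 1 RPKM, by list; bars are list medians, the dashed line and shading the median and quartiles of all 10886 such genes, and open triangles genes with no CLIP read, drawn at the limit that 3 reads set. Ratios here pool the reads of the 4 WSC libraries: *Tyrobp* has none and is drawn at its limit of 0.0191, and the other markers (blue) lie between 0.0157 for *Aif1* and 0.569 for *P2ry12*.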

How the data were processed

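RNA-seq was analysed in 2 WSC libraries (72006019 and 65625173 reads on genes) and NOVA CLIP in 12, grouped by the sample labels. For RNA-seq the authors used OLego to place 74-nt trimmed reads on mm9 and on splice junctions, kept unambiguous ones, and deposited read counts per gene, RPKM, and exon and junction counts per cassette exon. For CLIP the authors mapped with Novoalign to mm9, dropped reads next to GTGTC-like pentamers and deposited the positions of unique reads, a signal with no normalization; versions are not given in the sources used here. The labels of 1 MN library also name mm10, but no read of it lies beyond an mm9 chromosome end, a check that few reads could fail. Its share of reads on the sense strand of mm9 genes was 72.5%, beside 72.4% to 78.0% in the other MN libraries.

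CLIP reads were counted on the sense strand of 22380 protein-coding genes (GENCODE, NCBIM37, the mm9 build) and fitted with edgeR 4.0.16 in R 4.3.3 (TMM, filterByExpr, glmQLFTest), with DESeq2 1.42.0 as an alternative. Exons were compared between the 2 RNA libraries, not the sexes, with Fisher's exact test (scipy 1.17.1). Both tests were tested on simulated data. The simulated CLIP data covered only genes that pass edgeR's filter, which no marker does. The fit without that filter, from which the marker values come, was not tested in this way. The CLIP-to-RNA ratio used 17026 genes matched by symbol, with a floor of 3 counts for 0. Nothing says that replicates came from separate litters, so the CLIP p-values measure the spread between these libraries. The exon test sets 1 library against 1, so its p-values, like the intervals, cover counting error only.

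All 9 markers were named. Of each other list the rule let the text name the 2 most abundant genes and the 2 with the largest ratio, and the partners whole; 1 gene so chosen is not reported here. *Rbfox3*, of the neuron list, was not matched. The markers and all lists were chosen with earlier results of these data known. Alternatives were other scalings, filters, folds, pseudocounts, read classes and left-out libraries. Those that join the fit without a filter to another choice, and those of the CLIP-to-RNA ratio, were chosen after seeing the data.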

Additional observations from a re-analysis of the deposited data

Results flagged for a closer look

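Among 27 sets of 4 CLIP libraries (9 markers in line 6, line 17 and WSC), 9 held a library far from the other 3 by Dixon's criterion, which chance meets in about 1 of 20 sets of continuous values; 6 of the 9 rest on 1 read. In line 6 these were *C1qb* in replicate 3 (9.39 CPM from 3 reads), *Aif1* and *Trem2* in replicate 3 (3.13 each) and *Tyrobp* in replicate 4 (5.74), each against 0 in the other 3 libraries. In line 17 they were *Cx3cr1* in replicate 3 (15.2 from 1 read in a shallow library, against at most 1.47 elsewhere), and *Itgam* (2.94), *C1qb* (2.94) and *Trem2* (1.47) in replicate 4, against 0. In WSC, *Aif1* in replicate 4 stood at 0.560 against 0. Reads on the strand opposite to a marker entered no comparison and numbered 1515 at *P2ry12*, where *Med12l* lies on that strand, and 21 at *Csf1r*, where *Hmgxb3* does.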

How the results depend on the processing

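The place of the markers' median RNA level (67.1% of expressed genes below it) ranged from 65.8% to 68.3% without either library and was 67.1% with TPM. Between the male and female libraries, 1 marker passed 1.5-fold under every scaling, pseudocount and filter tried. At the lower fold tried 3 passed (*Aif1*, *Tyrobp*, *Trem2*), and 0 passed 2-fold. Of the 14215 genes compared at these folds, 1722 were higher in the male and 1217 in the female library past the lower fold. Past 2-fold, 134 were higher in the male and 90 in the female library. No marker exon was called with junction reads only, with 20 junction reads in each library, or with 10 in both libraries together, where all 5 events were tested. In the CLIP comparison with edgeR's filter no alternative held more than 2 of the markers and most held none, so the 0 calls there say nothing about stability. Without the filter, 1 was called with only the long 5′ barcode libraries, 0 to 1 when single libraries were left out, and 2 at FDR of at most 0.05. The log2 value of *C1qb* reversed to −2.02 without line 6 replicate 3 and to −1.53 without line 17 replicate 4. Over all genes, 1244 were higher and 1321 lower in MN with the filter, 1049 and 2656 without it, and 527 and 543 on exons only. The median CLIP-to-RNA ratio of 0.0781 ranged from 0.0491 (without WSC replicate 1) to 0.0857 when single WSC libraries were left out, and was 0.0502 over whole gene spans.

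Replicate numbers were not taken to pair the CLIP libraries: of 12 pairs with the same number, 3 had deviations correlated over 0.1 (−0.0661 to 0.198). All 3 were among the 4 pairs of line 6 with line 17. With the replicate block and no filter 0 of 9 markers were called (edgeR adjusted p = 0.0561 for *Csf1r* and 0.0518 for *P2ry12*, neither at or under 0.05), and 675 genes were higher and 2145 lower in MN; with the filter, which left no marker in the fit, 985 and 1097. MN depth is a limit: in the shallowest library 1 read is 20.01 CPM, above the WSC level of every marker.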
